A study of Mus musculus with 10 samples.

Results

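Haematopoietic mesoderm was compared with Foxa2+ cardiac mesoderm (CM) by RNAseq of cells sorted at day 5 from differentiating mouse embryonic stem cells (mESCs). The 2 samples whose cell type label is Flk1+ high were set against the 3 samples labelled as Foxa2+ CM, 5 of the 10 samples in the series. The line was Foxa2-hCD4, whose Foxa2 locus also encodes a shortened human CD4 (hCD4), a surface tag by which Foxa2-expressing cells can be sorted alive. Both groups came from the same kind of culture, embryoid bodies induced with Activin A at 8 ng/ml, BMP4 at 1 ng/ml and VEGF at 5 ng/ml. Foxa2+ CM was gated as positive for Pdgfra, Kdr and hCD4. Haematopoietic mesoderm was gated as Kdr high, and no gate on Pdgfra or hCD4 is stated for it in the sources used here. The other samples, 3 of Foxa2- CM from these cultures and 2 of endoderm induced with Activin A at 75 ng/ml, entered the fit and are used below as points of reference. All samples are of 1 mESC line grown in vitro, and the labels do not say that replicates were separate cultures, so that p-values measure only the spread between these samples.

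Kdr (Flk1) is the main receptor for VEGF, and mesoderm cells that carry it give rise to blood, vessels and heart. Cells that take the blood and vessel route switch on Etv2, an ETS-family factor, and then a set of regulators headed by Tal1, Fli1 and the Gata factors. Those that take the cardiac route keep Pdgfra, a receptor for PDGF, and switch on Tbx, Gata and Nkx2-5 factors. In gastrulation both kinds of cell pass through a primitive streak state marked by T, Eomes and Mixl1.

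The genes behind the gates are described first, in CPM, counts scaled for the depth of each library after TMM normalization. Kdr stood at 554 and 593 CPM in haematopoietic mesoderm replicates 1 and 2, and at 354, 364 and 424 CPM in Foxa2+ CM replicates 1, 2 and 3. Pdgfra stood at 34.3 and 23.8 CPM against 201, 214 and 247 CPM. Foxa2 stood at 0.690 and 0.788 CPM against 20.0, 16.0 and 3.497 CPM, and at 184 CPM on average in endoderm. Replicate 3 of Foxa2+ CM was thus closer to Foxa2- CM, at 2.54, 0.873 and 0.903 CPM, than to replicates 1 and 2. These 3 genes were used to sort cells and their differences were not read as results. Values are given below in the same order throughout, haematopoietic mesoderm replicates 1 and 2 and then Foxa2+ CM replicates 1, 2 and 3.

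The 5 libraries held between 13210503 and 17470126 counts on genes, which puts 3 counts at between 0.169 and 0.236 CPM, a floor that covers counting error only. Replicate 3 stood apart from the other Foxa2+ CM samples. It had less Foxa2 than replicates 1 and 2, and it was the highest of the 3 CM samples in 18 of the 20 haemato-endothelial transcription factors that were higher in haematopoietic mesoderm. The summed level of all 30 such factors was 1350, 1384 and 1603 CPM in the CM samples and 3524 and 3713 CPM in haematopoietic mesoderm. In Foxa2- CM, too, replicate 3 was the highest sample in each of the 12 most raised genes named below. Tie1 was there at 0.248, 0.397 and 18.5 CPM, and Dysf at 4.52, 3.73 and 21.7 CPM. A higher replicate 3 in these genes was thus not particular to Foxa2+ CM. The haematopoietic samples were unlike each other, with 402 genes at least 2-fold higher and 1012 at least 2-fold lower in replicate 2 than in replicate 1, on log2(CPM + 0.5). The same counts lay between 53 and 330 and between 13 and 127 in pairs of Foxa2+ CM samples. The part of these libraries in the results was not tested, and counts without single samples are given beside the gene groups that lead the comparison and wherever a group's count moved by over 1.5 times.

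Of 16180 genes tested with edgeR's quasi-likelihood test, 827 (5.11%) were at least 2-fold higher in haematopoietic mesoderm at an adjusted p under 0.05. A further 1003 (6.2%) were at least 2-fold lower. Together the 1830 changed genes were 11.3% of those tested. Similar level was tested on its own, with a pair of one-sided limma tests against a difference of 1.5-fold in either direction, and 6943 genes (42.9%) passed. The remaining 7407 genes (45.8%) were neither and are called undecided. These shares of all tested genes are the ones to set beside the counts of each list below. The median log2 difference of all tested genes was 0.028. Samples of the 2 groups did not overlap in 8086 genes (50%). Among these were 813 of the 827 higher genes, all 1003 lower genes, 2830 of 6943 similar genes and 3439 of 7407 undecided genes. Lack of overlap was thus common also in genes not called changed, and below it only describes values. Without replicate 1 of Foxa2+ CM, 538 genes were higher and 873 lower, without replicate 2 the counts were 606 and 752, and without replicate 3 they were 732 and 921. Without haematopoietic replicate 1 the counts were 660 and 1184, and without replicate 2 they were 986 and 876.

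**Figure D1:**
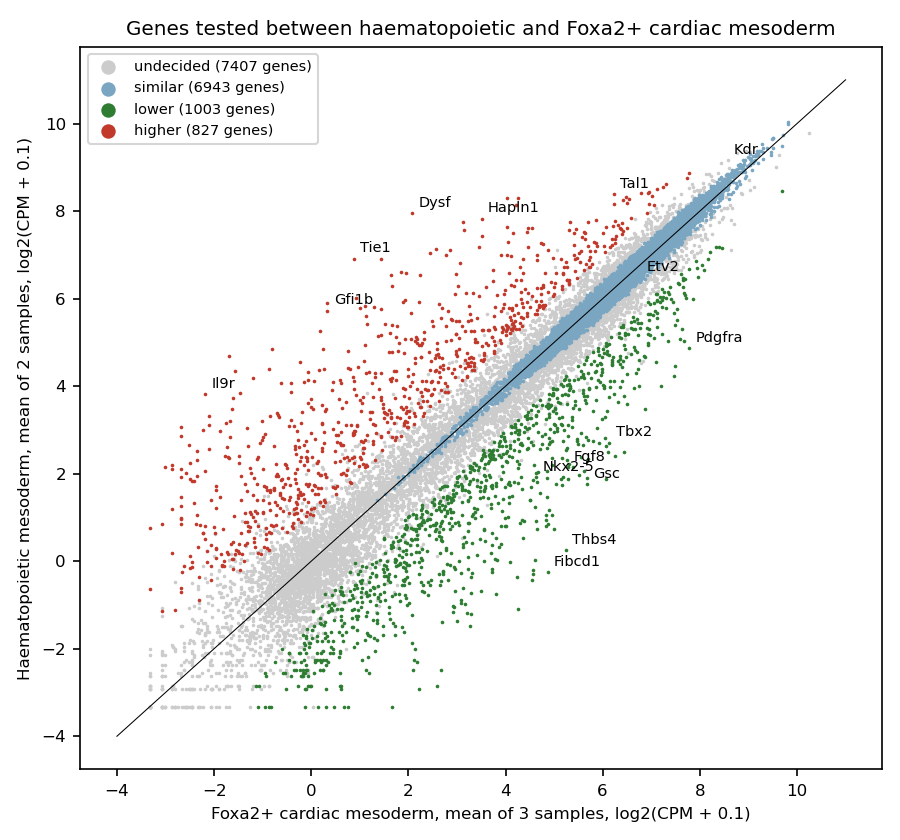
Each point is 1 of 16180 tested genes, with the mean of the 3 Foxa2+ CM samples on the x axis and the mean of the 2 haematopoietic samples on the y axis, both as log2(CPM + 0.1), and the line marks equal levels. The 6943 similar genes form the band along the line and thin out at low levels, while the 827 higher and 1003 lower genes lie on either side and are found mainly at low and middle levels.

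Transcription factors of the blood and vessel route come first. Of 30 haemato-endothelial factors in a list, 20 were higher in haematopoietic mesoderm, none lower, 3 similar and 7 undecided, against 5.11% of all genes called higher. The median log2 difference over the 30 was 1.91. When 1 of the 5 samples was left out, between 15 and 19 of them were called higher, with 15 without haematopoietic replicate 2 or without Foxa2+ CM replicate 1.

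Promoter windows of 3 of the higher genes and of Etv2, which was similar, are shown with the short motifs that GATA and ETS factors are known to bind, since both families were among the members that moved. Each runs 5′ to 3′ from 250 bases before to 50 bases after the start of transcription (RefSeq, GRCm38.p6). Capitals mark matches, on either strand, to GATAA for GATA factors and to CAGGAA or to the like motif CCGGAA for ETS factors. The genes were chosen after their values were seen.
Gfi1b, chr2:28621933-28622232, minus strand: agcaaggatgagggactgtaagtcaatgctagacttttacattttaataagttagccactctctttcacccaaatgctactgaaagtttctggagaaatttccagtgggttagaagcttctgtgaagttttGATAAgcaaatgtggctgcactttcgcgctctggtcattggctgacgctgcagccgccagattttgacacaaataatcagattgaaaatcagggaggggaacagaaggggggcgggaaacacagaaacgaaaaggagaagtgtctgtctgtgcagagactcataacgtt
Lyl1, chr8:84701207-84701506, plus strand: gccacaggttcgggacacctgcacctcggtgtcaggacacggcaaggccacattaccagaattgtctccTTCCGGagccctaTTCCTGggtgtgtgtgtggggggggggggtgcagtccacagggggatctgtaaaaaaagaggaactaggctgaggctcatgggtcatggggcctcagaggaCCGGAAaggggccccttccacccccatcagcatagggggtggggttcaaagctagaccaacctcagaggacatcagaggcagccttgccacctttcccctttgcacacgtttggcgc
Tie1, chr4:118489800-118490099, minus strand: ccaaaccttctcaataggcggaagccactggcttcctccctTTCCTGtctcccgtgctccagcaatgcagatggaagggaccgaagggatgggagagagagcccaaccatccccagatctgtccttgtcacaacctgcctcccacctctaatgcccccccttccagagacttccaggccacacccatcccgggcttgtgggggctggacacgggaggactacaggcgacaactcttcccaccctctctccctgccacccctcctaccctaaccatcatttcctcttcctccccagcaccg
Etv2, chr7:30635803-30636102, minus strand: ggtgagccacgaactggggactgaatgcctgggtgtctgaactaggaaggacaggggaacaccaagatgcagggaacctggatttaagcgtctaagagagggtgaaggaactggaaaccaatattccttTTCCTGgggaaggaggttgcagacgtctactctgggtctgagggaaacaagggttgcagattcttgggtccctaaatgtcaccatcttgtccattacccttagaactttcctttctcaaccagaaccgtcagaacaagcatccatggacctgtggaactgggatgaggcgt

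These motifs are common. Of 32851 RefSeq windows of this length, 25.4% held GATAA, 30.6% held CAGGAA and 14.9% held CCGGAA on either strand. In windows of genes higher in haematopoietic mesoderm the shares were 17.7%, 29.6% and 9.29%, in those of lower genes 19.2%, 25.4% and 10.4%, and in those of similar genes 15.2%, 25.1% and 34.8%. The full set also holds windows of genes not tested here, so it is not matched to the called genes. Differences between these shares were not tested. The Lyl1 window held 1 match to CAGGAA and 2 to CCGGAA, the Tie1 and Etv2 windows 1 match to CAGGAA each, and the Gfi1b window 1 match to GATAA. A match is a description of these letters and not evidence that a factor was bound.

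Gfi1b, a repressor of the erythroid and megakaryocyte lineages, was at 55.8 and 50.1 CPM in haematopoietic mesoderm and at 0.5848, 0.694 and 2.20 CPM in Foxa2+ CM. Its log2 difference of 5.47 ± 0.94 (SE) had an adjusted p of 0.0039 and was the largest of the list. Lyl1, a basic helix-loop-helix partner of the Gata factors in blood progenitors, was at 61.6 and 62.6 CPM against 2.49, 2.89 and 5.70 CPM, a log2 difference of 4.06 ± 0.68 (adjusted p = 0.00331). Both genes were higher in CM replicate 3 than in the other CM samples, and the groups did not overlap.

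Tal1 (ENSMUSG00000028717.6, chromosome 4 from 115056426 to 115071755, plus strand), the helix-loop-helix factor needed for all blood lineages, was at 328 and 339 CPM against 54.4, 58.1 and 112 CPM. The log2 difference was 2.15 ± 0.42 (adjusted p = 0.00689). Tal1 was thus well above the floor in every CM sample, and CM replicate 3 lay between the other CM samples and haematopoietic mesoderm. Fli1, an ETS factor of endothelium and megakaryocytes, had the same order, at 175 and 190 CPM against 12.4, 17.1 and 35.4 CPM (log2 difference 3.07 ± 0.55, adjusted p = 0.00481). Cbfa2t3, a corepressor in the Tal1 complex, stood at 187 and 174 CPM against 7.60, 13.7 and 32.04 CPM (log2 difference 3.33 ± 0.71, adjusted p = 0.0101).

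Gata1, Myb, Spi1 and Ikzf1 were also among the 20 higher factors. Gata1, the erythroid Gata factor, was at 58.2 and 51.0 CPM against 1.75, 2.08 and 4.005 CPM, a log2 difference of 4.37 ± 0.82 (adjusted p = 0.00562). Myb, a factor of definitive blood progenitors, was at 77.2 and 79.8 CPM against 1.90, 2.89 and 4.40 CPM (4.66 ± 0.59, adjusted p = 0.000979). Spi1 (PU.1), the myeloid ETS factor, was at 20.3 and 13.0 CPM against 0.5848, 0.579 and 0.790 CPM (4.65 ± 0.67, adjusted p = 0.00161), and Ikzf1, a lymphoid zinc finger factor, at 137 and 127 CPM against 2.78, 4.11 and 9.14 CPM (4.61 ± 0.88, adjusted p = 0.00622). In each of these genes the groups did not overlap. Other factors of blood progenitors, Mecom, Hoxa9 and Zbtb16, were undecided.

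Other members differed by less, and Foxa2+ CM held them at a higher level than the genes above. Gata2, the Gata factor of early progenitors, was at 235 and 226 CPM against 80.0, 85.1 and 124 CPM (log2 difference 1.26 ± 0.18, adjusted p = 0.00144). Ets2 was at 219 and 215 CPM against 44.2, 52.4 and 57.9 CPM (2.07 ± 0.13, adjusted p = 4.79e-05), the smallest p of the list. Nfatc1, a calcium-responsive factor of the endocardium, was at 203 and 188 CPM against 82.8, 88.2 and 101 CPM (1.11 ± 0.14, adjusted p = 0.000794). Runx1, the factor of definitive haematopoiesis, had values of 258 and 249 CPM against 90.1, 124 and 164 CPM and did not pass (log2 difference 1.00 ± 0.40, adjusted p = 0.104). Lmo2, the bridging protein of the Tal1 complex, at 154 and 152 CPM against 117, 101 and 88.0 CPM, and Ets1, at 234 and 296 CPM against 165, 177 and 150 CPM, were undecided, with log2 differences of 0.59 ± 0.16 and 0.69 ± 0.11 that were under 2-fold.

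The 3 members at a similar level were Etv2, Ldb1 and Tcf3. Etv2 (ENSMUSG00000006311.8, chromosome 7 from 30633616 to 30635852, minus strand) was at 88.0 and 92.4 CPM in haematopoietic mesoderm and at 126, 104 and 97.6 CPM in Foxa2+ CM. Etv2 thus lay lower in both haematopoietic samples than in any CM sample. The ratio of haematopoietic mesoderm to CM had a 95% interval of 0.689 to 1.01, within the 1.5-fold margin (limma, adjusted p of similarity 0.0321). Ldb1 and Tcf3, the ubiquitous members of the Tal1 complex, had intervals of 0.983 to 1.22 and 0.953 to 1.18. Etv2 carried 1.23 counts per exonic base in haematopoietic mesoderm, so that removal of duplicate reads could narrow a difference there. Sox17, an endothelial and endodermal factor, had values of 25.3 and 21.0 CPM against 27.7, 23.3 and 19.8 CPM, but its interval of 0.577 to 1.76 was too wide for either call.

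**Figure D2:**
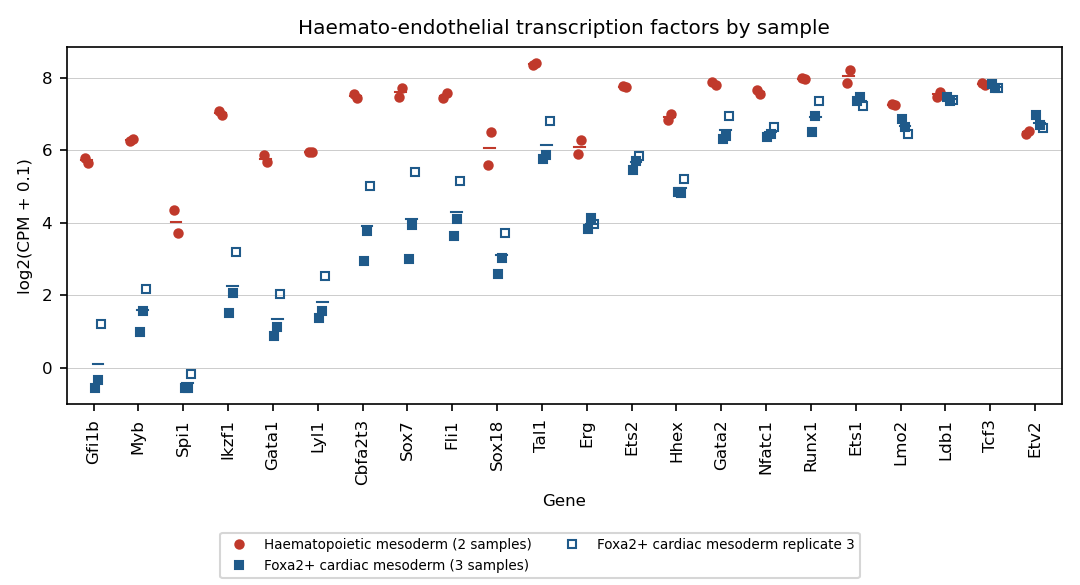
Levels of 22 haemato-endothelial transcription factors in each sample, as log2(CPM + 0.1), with haematopoietic mesoderm as circles, Foxa2+ CM as squares, its replicate 3 as open squares and the mean of the plotted values of each group as a short line. From left to right the gap between the groups closes, from Gfi1b with a log2 difference of 5.47 to Etv2, where the samples lie between 88.0 and 126 CPM, and replicate 3 of Foxa2+ CM is the highest CM sample in the genes with wide gaps.

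Surface and junction genes of endothelium followed. Of 28 listed, 25 were tested, 21 were higher, against 5.11% of all genes, and none was lower or similar. The median log2 difference was 3.25. Their summed level was 1877 and 2545 CPM in haematopoietic mesoderm and 296, 350 and 465 CPM in Foxa2+ CM. Between 14 and 21 were called higher when 1 sample was left out, with 14 without haematopoietic replicate 2, the sample with the higher level in 17 of the 21, and 15 without Foxa2+ CM replicate 1 or 2. In bulk RNA, more cells of a type and more RNA per cell cannot be told apart.

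Nos3, the endothelial nitric oxide synthase, was at 101 and 84.7 CPM against 2.27, 2.89 and 3.95 CPM (log2 difference 4.92 ± 0.61, adjusted p = 0.000929), although 32.3% of its exonic bases lie in other genes on the opposite strand. Esam, an endothelial adhesion molecule, was at 85.4 and 107 CPM against 3.07, 3.07 and 5.25 CPM (4.65 ± 0.63, adjusted p = 0.00129). Cd34, a sialomucin of progenitors and vessels, was at 13.0 and 20.6 CPM against 0.512, 0.521 and 0.620 CPM (4.90 ± 0.47, adjusted p = 0.000251). Pecam1 (CD31) was at 46.7 and 138 CPM against 3.44, 4.63 and 5.75 CPM (4.31 ± 0.64, adjusted p = 0.00185). The groups did not overlap in any of the 4, and Pecam1 was much higher in haematopoietic replicate 2 than in replicate 1.

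Cdh5 (VE-cadherin), the junction protein that defines endothelium, was at 158 and 275 CPM against 4.53, 7.81 and 13.6 CPM. Its log2 difference of 4.63 ± 1.07 had an adjusted p of 0.0145, which became 0.0629, 0.0606 and 0.0615 without Foxa2+ CM replicate 1, Foxa2+ CM replicate 2 and haematopoietic replicate 2. Tek, the angiopoietin receptor, was at 135 and 245 CPM against 3.66, 7.64 and 14.9 CPM (4.42 ± 0.97, adjusted p = 0.0116), and its adjusted p lay between 0.0503 and 0.0539 without these same samples. Not every endothelial gene was present. Emcn and Mmrn1 were at or below 0.0788 CPM in all 5 samples and Clec14a was at or below 0.0788 CPM in haematopoietic mesoderm and between 0.347 and 0.5848 CPM in Foxa2+ CM. Eng, a TGF-beta coreceptor, at 144 and 123 CPM against 73.0, 81.1 and 85.8 CPM, and Plvap, at 52.5 and 105 CPM against 36.9, 40.3 and 41.7 CPM, were undecided.

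Blood cell surface and effector genes were higher in 13 of 20 tested members, against 5.11% of all genes. None was lower or similar (median log2 difference 2.38). Between 10 and 12 were higher with 1 sample left out. Itga2b (CD41), the integrin of the earliest blood progenitors, was at 122 and 154 CPM against 4.53, 6.37 and 10.6 CPM (4.25 ± 0.57, adjusted p = 0.00123). Its integrin partner Itgb3 was at 38.1 and 51.0 CPM against 3.51, 5.84 and 7.28 CPM (3.00 ± 0.58, adjusted p = 0.00626). Vav1, a signalling protein of blood cells, was at 10.5 and 11.6 CPM against 0.219, 0.0579 and 0.395 CPM (5.56 ± 0.65, adjusted p = 0.000594). Kit, the stem cell factor receptor, was at 60.8 and 112 CPM against 33.2, 40.3 and 42.1 CPM (1.16 ± 0.31, adjusted p = 0.0277), and was not called without any one of haematopoietic replicate 2 (log2 difference 0.62) or Foxa2+ CM replicates 1, 2 or 3.

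Laptm5, a lysosomal protein of blood cells, was higher at 18.3 and 15.6 CPM against 0.658, 0.752 and 1.02 CPM. Some members were near 0 in both groups. Ptprc (CD45), the pan-leukocyte phosphatase, was at 0 in haematopoietic mesoderm and at most 0.0579 CPM in Foxa2+ CM, and Cd48 had no count in any of the 5 samples. The adult globins Hba-a1, Hbb-bs and Hbb-bt, whose near-identical copies share reads, were at or below 0.236 CPM. The embryonic globin Hbb-bh1 was at 2.95 and 23.2 CPM against 0, 0.463 and 0.226 CPM (log2 difference 5.70 ± 1.42, adjusted p = 0.023). Hbb-bh1 was far higher in haematopoietic replicate 2 than in replicate 1, and its adjusted p was 0.171 without replicate 2 and 0.081, 0.0644 and 0.0718 without Foxa2+ CM replicates 1, 2 and 3.

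Of 17 erythroid and haem genes tested, 5 were higher and 8 similar, against 5.11% and 42.9% of all genes. The higher genes included Epb42, a membrane skeleton protein, at 8.72 and 11.1 CPM against 0, 0.116 and 0.282 CPM (6.04 ± 1.01, adjusted p = 0.00338), and Alas2, the erythroid enzyme that starts haem synthesis, at 12.5 and 26.5 CPM against 1.83, 1.62 and 2.76 CPM (3.22 ± 0.45, adjusted p = 0.00136). Among the similar genes were Alas1, the housekeeping form of that enzyme, at 50.9 and 51.5 CPM against 49.6, 51.9 and 43.9 CPM, and the haem enzymes Fech and Urod. Tfrc, the transferrin receptor, was also similar, at 296 and 327 CPM against 283, 274 and 256 CPM.

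VEGF, Notch and angiopoietin signalling moved in part. Of 30 tested members 9 were higher, 2 lower and 4 similar, against 5.11%, 6.2% and 42.9% of all genes. The median log2 difference was 0.14. Without haematopoietic replicate 2, 12 were higher and 5 lower. The VEGF receptors besides Kdr were among the higher genes. Flt1 (VEGFR1) was at 403 and 222 CPM against 8.63, 14.1 and 25.8 CPM (4.25 ± 0.63, adjusted p = 0.00195), and Flt4 (VEGFR3) at 350 and 219 CPM against 11.99, 15.9 and 27.6 CPM (3.93 ± 0.52, adjusted p = 0.00122). The Notch receptor Notch1 was at 323 and 258 CPM against 71.3, 93.6 and 107 CPM (1.68 ± 0.20, adjusted p = 0.000671), and its ligand Dll4 at 9.47 and 12.6 CPM against 1.02, 1.04 and 1.35 CPM (3.26 ± 0.44, adjusted p = 0.00116). The ligand Vegfc was lower, at 7.28 and 24.6 CPM against 56.1, 60.0 and 78.5 CPM (−2.04 ± 0.41, adjusted p = 0.0079). Vegfa, at 147 and 162 CPM against 161, 141 and 128 CPM, and Notch2 were similar. These receptors thus stood higher in haematopoietic mesoderm, while the ligand Vegfc was lower and Vegfa similar.

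By size of change, the 12 most raised genes, taken from genes averaging 50 or more counts whose groups did not overlap, were Igf1, Il9r, Gad2, Tie1, Epb42, Dysf, Ctla2b, Gm14204, Hbb-bh1, Slc32a1, Stab1 and Gimap8. Most had few counts in Foxa2+ CM, such as 0, 2 and 9 for Igf1, so the sizes of their changes rest on few counts there. Dysf, Tie1 and Stab1 had more, with 30, 65 and 114 counts for Dysf. Other genes cover 68.7% of the exonic bases of Ctla2b. Dysf (dysferlin, a membrane repair protein) had the highest mean level of the 12 in haematopoietic mesoderm, at 264 and 233 CPM against 2.19, 3.76 and 6.43 CPM (log2 difference 5.88 ± 0.69, adjusted p = 0.000689). Igf1, insulin-like growth factor 1, was at 12.5 and 39.1 CPM against 0, 0.116 and 0.508 CPM (6.80 ± 1.29, adjusted p = 0.00584). Il9r, an interleukin receptor chain, was at 14.9 and 12.9 CPM against 0.0731, 0.174 and 0.113 CPM (6.73 ± 0.56, adjusted p = 0.000126), which are 1 to 3 counts in each CM sample.

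The group also held a pair of genes better known from neurons. Gad2, an enzyme that makes GABA, was at 30.7 and 10.1 CPM against 0.146, 0.174 and 0.395 CPM (6.34 ± 0.84, adjusted p = 0.00121), with 16.4 CPM on average in endoderm. Slc32a1 (ENSMUSG00000037771.11, chromosome 2 from 158610767 to 158615748, plus strand), the transporter that loads GABA into vesicles, was at 17.6 and 18.7 CPM against 0.146, 0.231 and 0.620 CPM (5.68 ± 0.85, adjusted p = 0.00191) and at 0.130 CPM in endoderm. Gm14204, a noncoding gene, lies beside Slc32a1 on the opposite strand and had 8.47 and 8.66 CPM against 0, 0.0579 and 0.338 CPM. The counting is not stated to use strand, so reads of neighbouring or overlapping antisense genes cannot be told apart, and 24.9% of the exonic bases of Slc32a1 lie in another such gene, Gm14205. The genes Tie1, Ctla2b and Hbb-bh1 were not called in 3, 4 and 4 of the 5 fits that left out 1 sample, with adjusted p up to 0.074, 0.154 and 0.171.

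Cardiac transcription regulators were mixed. Of 33 tested, 7 were lower in haematopoietic mesoderm, 4 were higher and none was similar, against 6.2%, 5.11% and 42.9% of all genes. The other 22 were undecided. Their summed level was 936 and 1286 CPM against 1699, 1701 and 1746 CPM. With 1 sample left out, between 5 and 9 were lower and between 4 and 6 higher.

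Nkx2-5 (ENSMUSG00000015579.4, chromosome 17 from 26838664 to 26845009, minus strand), the homeobox factor of the early heart, was at 3.33 and 4.02 CPM against 29.1, 25.1 and 20.1 CPM. The log2 difference of −2.75 ± 0.26 had an adjusted p of 0.000238. Tbx2 and Tbx20, T-box factors of the heart, were at 2.51 and 10.4 CPM against 59.0, 71.1 and 81.2 CPM (−3.48 ± 0.48, adjusted p = 0.00134) and at 16.9 and 56.2 CPM against 115, 167 and 168 CPM (−2.05 ± 0.48, adjusted p = 0.0145). Foxf2, a forkhead factor of lateral mesoderm, was at 0.376 and 1.57 CPM against 10.2, 8.74 and 8.86 CPM (−3.28 ± 0.56, adjusted p = 0.00342). These genes kept their call with any 1 sample left out. In all but Nkx2-5 haematopoietic replicate 2 was several times above replicate 1.

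Tbx5, the T-box factor of the first heart field, was at 1.13 and 0.630 CPM against 3.29, 3.94 and 4.12 CPM (−2.07 ± 0.55, adjusted p = 0.0238), and Casz1, a zinc finger factor of heart muscle, at 9.41 and 5.59 CPM against 18.7, 19.1 and 13.6 CPM (−1.18 ± 0.28, adjusted p = 0.0158). Tbx5 was called only without haematopoietic replicate 1 among the 5 fits that left out a sample, with adjusted p between 0.0518 and 0.103 in the others. Casz1 was not called without haematopoietic replicate 2 (adjusted p = 0.069) or without Foxa2+ CM replicate 1 or 2.

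The heart factors Gata4 and Gata6 were undecided. Gata4 was at 85.4 and 192 CPM against 288, 258 and 240 CPM (−0.92 ± 0.34, adjusted p = 0.0831) and Gata6 at 78.1 and 84.5 CPM against 155, 140 and 127 CPM, a log2 difference of −0.79 that was under 2-fold. Hand1 was at 33.0 and 69.9 CPM against 54.4, 68.3 and 115 CPM, with overlap between the groups. Isl1, of the second heart field, was at 5.46 and 2.28 CPM against 1.97, 3.01 and 4.68 CPM, also overlapping, with 21.0 CPM on average in Foxa2- CM. Mesp1, the earliest factor of cardiac mesoderm, was at 11.4 and 1.10 CPM against 6.43, 7.06 and 3.72 CPM, so that the haematopoietic samples lay on either side of the CM samples. The 4 members higher in haematopoietic mesoderm were Foxc1, Foxc2, Hopx and Hcn4. Hcn4 is a pacemaker channel and no transcription regulator, and without haematopoietic replicate 1 it was not called (adjusted p = 0.0923). Foxc2, a forkhead factor of vessels and mesenchyme, was the most abundant by counts, at 12.05 and 13.5 CPM against 1.75, 2.14 and 1.80 CPM (2.74 ± 0.39, adjusted p = 0.00139).

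Of 28 sarcomere, smooth muscle and calcium-handling genes tested, 8 were higher, 4 lower and 3 similar, against 5.11%, 6.2% and 42.9% of all genes. Their summed level was 1234 and 1227 CPM against 1201, 1205 and 1249 CPM. The myosin heavy chain Myh7 was at 5.27 and 6.77 CPM against 0.146, 0.289 and 0.169 CPM (4.82 ± 0.54, adjusted p = 0.000469) and Myh6 at 14.7 and 6.69 CPM against 1.24, 1.22 and 0.902 CPM (3.26 ± 0.40, adjusted p = 0.000726), a closely related pair of genes that can share reads. Myh7 was at 5.40 CPM on average in endoderm. Lower genes included the cardiac troponin Tnni3, at 5.08 and 4.80 CPM against 12.9, 14.1 and 11.6 CPM (−1.37 ± 0.20, adjusted p = 0.00146), and Casq2, which stores calcium, at 0.439 and 0.473 CPM against 2.34, 2.37 and 2.82 CPM (−2.45 ± 0.41, adjusted p = 0.00307). With 1 sample left out, 4 members were higher without Foxa2+ CM replicate 1 or 2, and between 6 and 8 otherwise, and 2 were lower without Foxa2+ CM replicate 2. The list therefore had no common direction, and the troponin Tnnt2, at 2.57 and 7.80 CPM against 7.09, 7.23 and 6.26 CPM, was undecided.

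Genes of the primitive streak and nascent mesoderm were lower in 7 of 21 tested members, against 6.2% of all genes. None of the 21 was higher or similar (median log2 difference −0.93). Their summed level was 645 and 642 CPM against 1419, 1277 and 1163 CPM. Gsc, a homeobox factor of the anterior streak, was at 1.57 and 5.04 CPM against 65.2, 51.5 and 35.6 CPM (−3.98 ± 0.49, adjusted p = 0.000897). Fgf8, the streak ligand that moves cells away from it, was at 2.89 and 5.83 CPM against 45.5, 38.4 and 32.5 CPM (−3.18 ± 0.28, adjusted p = 0.000182). Fst (follistatin), which binds activin, was at 9.35 and 4.88 CPM against 36.2, 44.8 and 35.0 CPM (−2.42 ± 0.31, adjusted p = 0.00105), and Snai1, which drives the loss of epithelial junctions, at 24.7 and 13.2 CPM against 60.7, 65.3 and 61.7 CPM (−1.72 ± 0.32, adjusted p = 0.00548). The groups did not overlap in any of the 4. Foxa2+ CM replicate 3 was the lowest CM sample in 6 of the 7 lower genes.

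Eomes, the T-box factor of the streak, was at 81.0 and 205 CPM against 402, 335 and 312 CPM (−1.29 ± 0.33, adjusted p = 0.0218), and Mixl1 at 53.0 and 120 CPM against 237, 199 and 188 CPM (−1.27 ± 0.29, adjusted p = 0.0143). Without haematopoietic replicate 1 their log2 differences were −0.77 and −0.79, under 2-fold, and Eomes also lost its call without Foxa2+ CM replicate 1 (adjusted p = 0.0607) or 2 (adjusted p = 0.0513). T (brachyury) was undecided, at 209 and 80.2 CPM against 117, 106 and 105 CPM, and here too the CM samples lay between the haematopoietic ones.

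**Figure D3:**
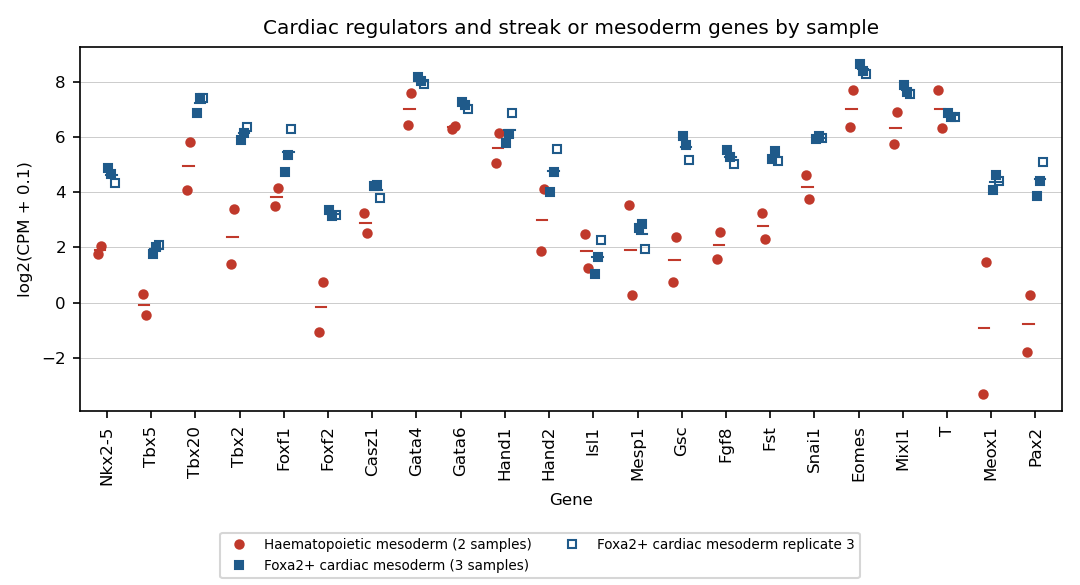
Levels of 22 cardiac, streak and mesoderm genes in each sample, as log2(CPM + 0.1), with haematopoietic mesoderm as circles, Foxa2+ CM as squares, its replicate 3 as open squares and the mean of the plotted values of each group as a short line. Nkx2-5, Tbx2, Gsc, Fgf8 and Pax2 lie lower in both haematopoietic samples with no overlap, while Isl1, Mesp1 and T overlap or are split by the haematopoietic samples.

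Paraxial and lateral plate mesoderm genes were lower in 9 of 26 tested and higher in 2, or in 1 without Foxa2+ CM replicate 3 or haematopoietic replicate 1. These counts stand beside 6.2% lower and 5.11% higher among all genes. Pax2, the paired-box factor of intermediate mesoderm, was at 0.188 and 1.10 CPM against 14.5, 21.2 and 33.9 CPM (−5.23 ± 0.76, adjusted p = 0.00167). Meox1, of the somites, was at 0 and 2.68 CPM against 16.6, 24.2 and 20.8 CPM (−4.01 ± 0.94, adjusted p = 0.0153). Msx2, a target of BMP signals, was at 17.4 and 39.9 CPM against 93.0, 82.3 and 88.7 CPM (−1.63 ± 0.35, adjusted p = 0.0101). Tcf15, of the paraxial mesoderm, went the other way, at 5.08 and 7.09 CPM against 0.658, 0.694 and 0.733 CPM (3.11 ± 0.42, adjusted p = 0.00116). With 1 sample left out, between 4 and 9 members were lower, the fewest without haematopoietic replicate 2.

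Markers of cell types that neither gate was meant to hold were checked in the same way. Of 22 definitive and visceral endoderm markers, 6 were lower in haematopoietic mesoderm and 2 higher, against 6.2% and 5.11% of all genes. Foxa2+ CM replicate 3 was the lowest CM sample in 5 of the 6 lower markers, which include Foxa2 of the sort. Without haematopoietic replicate 2, 4 were lower, and without haematopoietic replicate 1, 1 was higher. Foxa1, at 0.878 and 0.866 CPM against 1.02, 1.27 and 0.846 CPM, stayed far below the endoderm mean of 64.6 CPM. The summed level of the endoderm list was 373 and 356 CPM against 559, 540 and 484 CPM. Hhex, listed with endoderm and also a haemato-endothelial factor, was higher, at 114 and 130 CPM against 28.6, 28.5 and 36.9 CPM (1.96 ± 0.26, adjusted p = 0.00124).

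Pluripotency and epiblast markers were lower in 8 of 20 and higher in 2, against 6.2% and 5.11% of all genes. Higher members numbered 3 without haematopoietic replicate 2 and 1 without any one of the other samples. Nanog was at 1.82 and 1.65 CPM against 4.97, 6.13 and 6.49 CPM (−1.75 ± 0.25, adjusted p = 0.00133) and Otx2, an epiblast and anterior factor, at 5.08 and 4.73 CPM against 43.9, 42.8 and 28.2 CPM (−2.96 ± 0.51, adjusted p = 0.00387). Pou5f1 (Oct4) was undecided, at 41.8 and 19.6 CPM against 34.7, 32.8 and 25.4 CPM. Among 10 neural markers, 2 were lower, 1 was higher and 1 was similar, with 2 higher without haematopoietic replicate 2 and none without any one of the other samples. Beside 6.2% lower, 5.11% higher and 42.9% similar among all genes, these are counts of 1 or 2 genes. Sox3 was at 0.565 and 2.84 CPM against 28.0, 32.9 and 26.2 CPM (−4.14 ± 0.50, adjusted p = 0.000705). The part of other cell types in the results was not tested.

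The 12 genes most lowered were Slc6a12, Gm6116, Tuba8, Fibcd1, Pax2, Thbs4, Elfn2, Stk32a, Sphkap, Cd28, Sez6l and Usp18. Thbs4 (ENSMUSG00000021702.7, chromosome 13 from 92751590 to 92794818, minus strand), a thrombospondin of the extracellular matrix, was at 0.376 and 1.81 CPM against 39.8, 34.5 and 39.5 CPM (log2 difference −5.17 ± 0.53, adjusted p = 0.000353). Fibcd1, a receptor for acetylated sugars, was at 0.376 and 1.10 CPM against 30.3, 29.1 and 28.2 CPM (−5.34 ± 0.45, adjusted p = 0.000126). Slc6a12, a transporter of betaine and GABA, was at 0 and 0.0788 CPM against 4.24, 4.92 and 8.57 CPM (−7.09 ± 0.76, adjusted p = 0.000404), with 1.16 CPM on average in Foxa2- CM. All 12 were at or below 1.81 CPM in both haematopoietic samples, so the sizes of their changes rest on few counts there.

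The ligands, receptors and inhibitors of the BMP and TGF-beta pathway included 4 higher, 5 lower and 5 similar genes of 34 tested. These counts stand beside 5.11% higher, 6.2% lower and 42.9% similar among all genes. On the receptor side, Tgfbr2 was at 48.1 and 33.9 CPM against 13.7, 15.3 and 16.6 CPM (1.43 ± 0.22, adjusted p = 0.00205) and Acvrl1, the endothelial type I receptor, at 17.6 and 32.7 CPM against 3.51, 3.47 and 7.11 CPM (2.41 ± 0.41, adjusted p = 0.00351). Bmpr1b, a BMP receptor, was at 1.32 and 2.44 CPM against 11.4, 15.5 and 20.2 CPM (−3.08 ± 0.34, adjusted p = 0.000478), whereas Bmpr1a was similar, at 228 and 249 CPM against 197, 219 and 222 CPM. Among ligands, Bmp6 was at 32.7 and 42.1 CPM against 2.34, 4.98 and 7.33 CPM (2.92 ± 0.56, adjusted p = 0.00603). Bmp4 was at 72.7 and 65.2 CPM against 139, 129 and 148 CPM (−1.01 ± 0.13, adjusted p = 0.00103), just past 2-fold, and at −0.96 and −0.97 it was just inside it without Foxa2+ CM replicate 3 or haematopoietic replicate 2. Smad9, a transducer of BMP signals, was at 0.565 and 0.551 CPM against 8.26, 9.49 and 8.23 CPM (−3.94 ± 0.28, adjusted p = 7.34e-05), while Smad5 was similar.

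Wnt pathway genes were lower in 9 of 36 tested, higher in 3 and similar in 1, against 6.2%, 5.11% and 42.9% of all genes. Lower members numbered 6 without Foxa2+ CM replicate 2, and higher members 6 without haematopoietic replicate 2. Ligands were among the lower genes, with Wnt2 at 9.41 and 25.0 CPM against 75.5, 74.4 and 75.1 CPM (−2.14 ± 0.32, adjusted p = 0.00201) and Wnt5b at 13.1 and 6.38 CPM against 30.8, 33.5 and 42.8 CPM (−1.87 ± 0.28, adjusted p = 0.00198). Dkk1, a secreted inhibitor of Wnt signals, was at 11.2 and 13.3 CPM against 80.8, 76.4 and 82.0 CPM (−2.70 ± 0.35, adjusted p = 0.00104). Receptors went both ways. Fzd7 was at 123 and 168 CPM against 360, 334 and 317 CPM (−1.22 ± 0.13, adjusted p = 0.000423), and Fzd10 at 167 and 171 CPM against 33.7, 41.7 and 67.5 CPM (1.83 ± 0.32, adjusted p = 0.00405).

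In the FGF and PDGF pathway 5 of 25 tested genes were higher and 5 lower, against 5.11% and 6.2% of all genes. Pdgfra of the sort was among the lower genes. Without Foxa2+ CM replicate 1, Foxa2+ CM replicate 2 or haematopoietic replicate 1, 3 were higher. Pdgfrb, the second PDGF receptor, was at 7.72 and 36.3 CPM against 166, 180 and 194 CPM (−3.06 ± 0.49, adjusted p = 0.00269). The ligand Fgf5 was at 3.58 and 4.02 CPM against 57.2, 51.2 and 27.5 CPM (−3.58 ± 0.45, adjusted p = 0.000974), whereas the ligand Fgf3 was at 185 and 180 CPM against 59.1, 55.1 and 77.7 CPM (1.51 ± 0.13, adjusted p = 0.000142). Fgfr1, the main FGF receptor of mesoderm, was similar, at 224 and 278 CPM against 251, 250 and 297 CPM.

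Of 18 retinoic acid genes, 2 were higher, 3 lower and 3 similar, against 5.11%, 6.2% and 42.9% of all genes. Higher genes numbered 3 without haematopoietic replicate 2 and 1 without any one of the other samples. Aldh1a2, which makes retinoic acid in mesoderm, was at 7.72 and 13.4 CPM against 1.39, 1.85 and 3.55 CPM (2.20 ± 0.44, adjusted p = 0.00732). Aldh1a3, a second such enzyme, was at 0.251 and 1.02 CPM against 6.21, 7.12 and 7.56 CPM (−3.49 ± 0.68, adjusted p = 0.00645), and Crabp2, which carries retinoic acid to its receptors, at 3.45 and 2.60 CPM against 23.6, 22.3 and 14.4 CPM (−2.72 ± 0.26, adjusted p = 0.000256). The receptors Rara and Rxrb were similar.

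Of 23 Cdx and Hox genes tested, 5 were higher and none was lower or similar, against 5.11%, 6.2% and 42.9% of all genes. All 5 were higher in haematopoietic replicate 2 than in replicate 1, and 4 of them were highest in replicate 3 among the CM samples. Only 6 genes of the list averaged 50 counts or more, and few genes with low counts were called similar in any list. Hoxb5 was at 1.63 and 10.6 CPM against 0.0731, 0.174 and 0.677 CPM (4.19 ± 1.01, adjusted p = 0.0206), with an adjusted p of 0.184 without haematopoietic replicate 2 and of 0.0742 and 0.077 without Foxa2+ CM replicates 1 and 2. The list depended on single samples, with 1 member called without Foxa2+ CM replicate 1 or 2, 2 without haematopoietic replicate 2 and 6 without Foxa2+ CM replicate 3.

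Matrix and adhesion genes comprised 5 higher, 3 lower and 8 similar of 35 tested, against 5.11%, 6.2% and 42.9% of all genes. With Foxa2+ CM replicate 1 or 2 left out 3 were higher and 2 lower, with replicate 3 left out 2 were lower, and with haematopoietic replicate 2 left out 5 were lower. Col18a1, a basement membrane collagen of vessels, was at 265 and 308 CPM against 59.2, 67.2 and 98.1 CPM (1.94 ± 0.34, adjusted p = 0.00407). Itga6, a laminin receptor, was at 78.3 and 130 CPM against 255, 250 and 233 CPM (−1.24 ± 0.17, adjusted p = 0.00132), and was under 2-fold without haematopoietic replicate 1. Fibronectin (Fn1) was similar, at 1052 ± 137 CPM (SD, n = 2) against 901 ± 80.9 CPM (SD, n = 3), as were its receptor chains Itga5, Itgb1 and Itgav.

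Families of axon guidance also act in vessels. They gave 5 higher, 5 lower and 3 similar genes of 35, against 5.11%, 6.2% and 42.9% of all genes. Without Foxa2+ CM replicate 1, 3 were higher, and without haematopoietic replicate 2, 3 were lower. Plxnd1, the semaphorin receptor of endothelium, was at 299 and 389 CPM against 98.6, 126 and 145 CPM (1.48 ± 0.24, adjusted p = 0.00288), and Plxnc1 at 20.0 and 41.6 CPM against 1.68, 1.62 and 2.88 CPM (3.89 ± 0.52, adjusted p = 0.00117). Sema3e, a ligand of Plxnd1, was at 3.89 and 2.36 CPM against 8.26, 10.9 and 14.0 CPM (−1.81 ± 0.36, adjusted p = 0.00685), and was not called without haematopoietic replicate 2. Ephb4 and Efnb2, a receptor and ligand of veins and arteries, were similar, at 184 and 200 CPM against 149, 161 and 172 CPM and at 212 and 252 CPM against 276, 263 and 248 CPM.

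In the IGF axis and imprinted list, 3 of 19 tested genes were higher, 1 lower and 4 similar, against 5.11%, 6.2% and 42.9% of all genes. Besides Igf1, the growth factor Igf2 was at 335 and 396 CPM against 106, 131 and 177 CPM (1.40 ± 0.28, adjusted p = 0.00782), with 64.5% of its exonic bases in other genes and with 266 CPM on average in Foxa2- CM. Genes of the epithelial and mesenchymal state were lower in 5 of 20 and higher in 1, with 2 higher without haematopoietic replicate 2 and none without any one of the other samples. These counts stand beside 6.2% lower and 5.11% higher among all genes. Krt19, a simple epithelial keratin, was at 6.40 and 8.74 CPM against 52.9, 52.8 and 35.9 CPM (−2.64 ± 0.36, adjusted p = 0.00123), and Cdh11, a mesenchymal cadherin, at 128 and 138 CPM against 308, 287 and 294 CPM (−1.16 ± 0.09, adjusted p = 0.000108). Vim (vimentin) was similar.

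**Figure D4:**
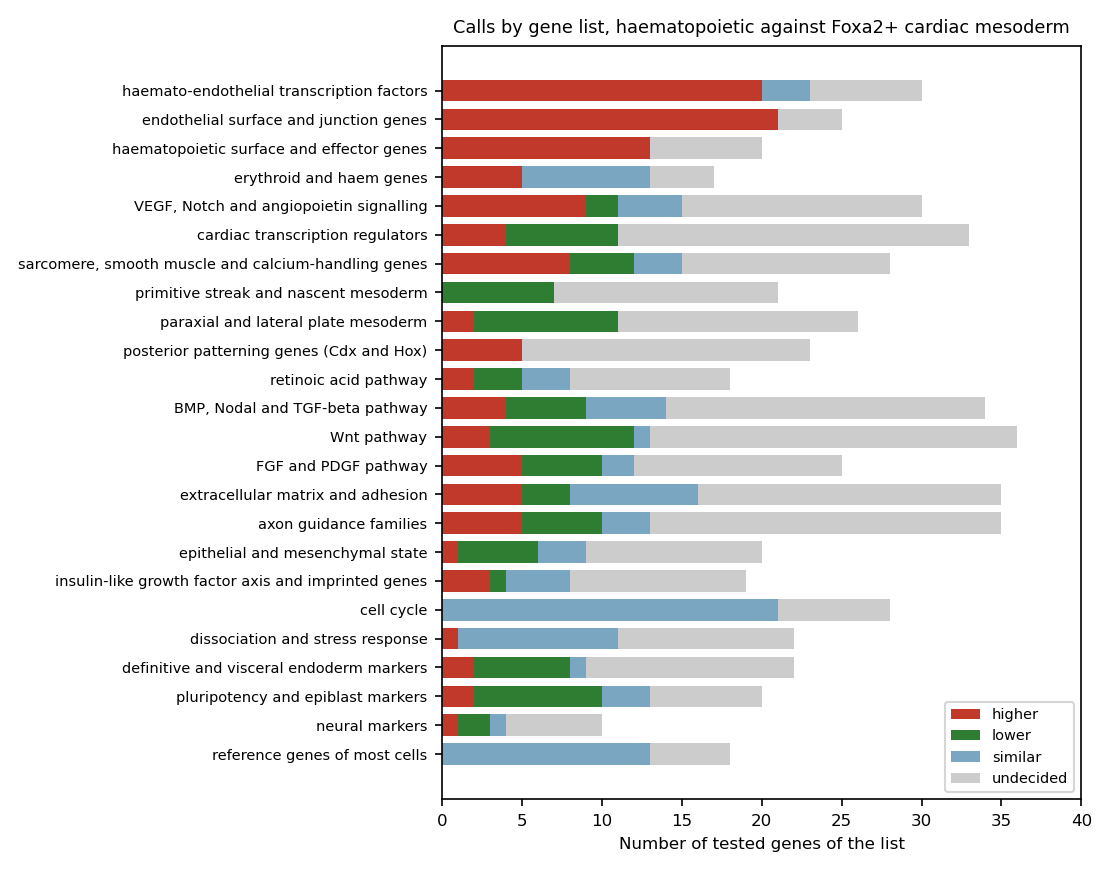
Bars give the number of tested genes of each of 24 lists, coloured by whether they were higher, lower or similar in haematopoietic mesoderm against Foxa2+ CM, or undecided. Higher genes fill most of the bars of the endothelial surface genes (21 of 25) and the haemato-endothelial factors (20 of 30), lower genes number 9 in the paraxial and in the Wnt list and 8 in the pluripotency list, and similar genes fill most of the cell cycle bar (21 of 28).

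The genes at a similar level were mostly abundant genes. The median level was 89.4 CPM for similar genes, 7.50 CPM for higher, 7.48 CPM for lower and 3.97 CPM for undecided genes. At a mean of 200 CPM or more over the 5 samples, 88.2% of 1115 genes were similar, 0.807% higher and 0.717% lower. Between 1 and 10 CPM, 3.82% of 3743 were similar, 9.97% higher and 12% lower, and below 1 CPM no gene was called similar. A similar call thus needed counts. Undecided genes were neither shown to be similar nor called changed. Some of them, such as Sema6a (log2 difference −0.84, edgeR adjusted p = 0.0104), differed by under 2-fold. The abundant genes are also those in which removal of duplicate reads may narrow differences. Of 2200 tested genes above 0.5 counts per exonic base, 1823 were similar and 91 changed. The other 5120 similar genes were not above that limit, by the same calls and with no new fit.

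Similar does not mean equal, and 660 of the 6943 similar genes also had an adjusted p under 0.05 for a difference, which lay inside the margin. With a narrower margin, a ratio of at most 5 to 4 in either direction, 671 genes passed. Of 28 cell cycle genes 21 were similar and none was higher or lower, a share of similar genes near that of all genes at 50 to 200 CPM (77%), with the proliferation marker Mki67 at 607 and 612 CPM against 568, 586 and 564 CPM. The ratio of Mki67 had a 95% interval of 0.968 to 1.17. Of 18 reference genes 13 were similar, and none was called higher or lower. The largest departure was that of B2m, at 26.9 and 25.4 CPM against 17.9, 18.1 and 17.7 CPM, a log2 difference of 0.55 ± 0.13 that was under 2-fold.

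Near the 42.9% and 5.11% shares of all genes, 10 of 22 genes of dissociation and stress were similar and 1 was higher. That gene, the stress factor Atf3, was at 112 and 88.7 CPM against 13.7, 12.8 and 13.2 CPM (2.92 ± 0.22, adjusted p = 9.08e-05), with no change of call when any 1 sample was left out. The other immediate-early genes were undecided or similar, among them Fos at 185 and 76.5 CPM against 146, 164 and 149 CPM, and Ier2 at 129 and 118 CPM against 133, 120 and 97.1 CPM.

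Most similar genes were shared widely. For 6354 of the 6943 (91.5%), the means of all 4 populations, endoderm and Foxa2- CM included, lay within 1.5-fold of each other. The means of the 3 mesoderm populations did so for 6894 genes (99.3%), of which 540 had an endoderm mean outside that range. Of the 6940 similar genes that averaged 50 counts or more, 11 had an endoderm mean at least 4 times lower and 3 at least 4 times higher. The differences from endoderm are descriptions of means, with no test.

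Those 11 genes were Hdac7, Fgd5, Kalrn, Apcdd1, Ppic, Etv2, Dok4, Irf2, Gm9821, Tshz1 and Vsir, the last named after its values were seen. Hdac7, a histone deacetylase of vessels, was at 229 and 304 CPM in haematopoietic mesoderm and at 311, 284 and 289 CPM in Foxa2+ CM, and averaged 51.5 CPM in endoderm. Fgd5, which is known from blood stem cells and endothelium, was at 238 and 250 CPM against 275, 286 and 320 CPM, with 57.3 CPM in endoderm. Fgd5 lay lower in both haematopoietic samples, but the ratio had an interval of 0.729 to 0.944, inside the margin. Etv2, at 7.37 CPM in endoderm, had 103 CPM in Foxa2- CM.

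Kalrn, a guanine nucleotide exchange factor, was at 163 and 145 CPM against 164, 159 and 151 CPM, with 26.6 CPM in endoderm, and Apcdd1, a membrane inhibitor of Wnt signals, at 130 and 137 CPM against 119, 131 and 152 CPM, with 12.6 CPM. In both the samples of the 2 groups overlapped, and the ratios had intervals of 0.86 to 1.11 and 0.811 to 1.23. Tshz1, a zinc finger factor, was at 16.5 and 20.3 CPM against 17.6, 19.6 and 20.1 CPM, with 2.81 CPM in endoderm. The 3 similar genes with a higher endoderm mean were Cdh1 (E-cadherin), Trh and Rab15. Cdh1 was at 12.5 and 11.7 CPM against 11.6, 13.5 and 9.14 CPM, with 519 CPM in endoderm.

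Similar genes in which Foxa2- CM had the most different mean were Abcg1, Irf2, Svip, Mtcl1 and Plekha7. Irf2, an interferon regulatory factor, was at 40.7 and 32.6 CPM in haematopoietic mesoderm and at 28.7, 30.4 and 35.3 CPM in Foxa2+ CM, with a mean of 17.6 CPM in Foxa2- CM and 3.45 CPM in endoderm. Plekha7, of adherens junctions, was at 94.2 and 69.1 CPM against 71.2, 77.0 and 67.7 CPM, with 41.9 CPM in Foxa2- CM. Abcg1, which exports cholesterol, was at 6.53 and 9.45 CPM against 6.65, 9.61 and 7.16 CPM, with 3.93 CPM. Mtcl1 alone was higher in Foxa2- CM, at 192 CPM against values between 77.1 and 132 CPM in the 5 samples. On log2(CPM + 0.5), Foxa2- CM differed from the mean of the 5 samples by between −0.92 (Abcg1) and −0.85 (Plekha7), and by 0.87 in Mtcl1. These differences were under 2-fold but outside the 1.5-fold margin, and Foxa2- CM was not tested here.

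**Figure D5:**
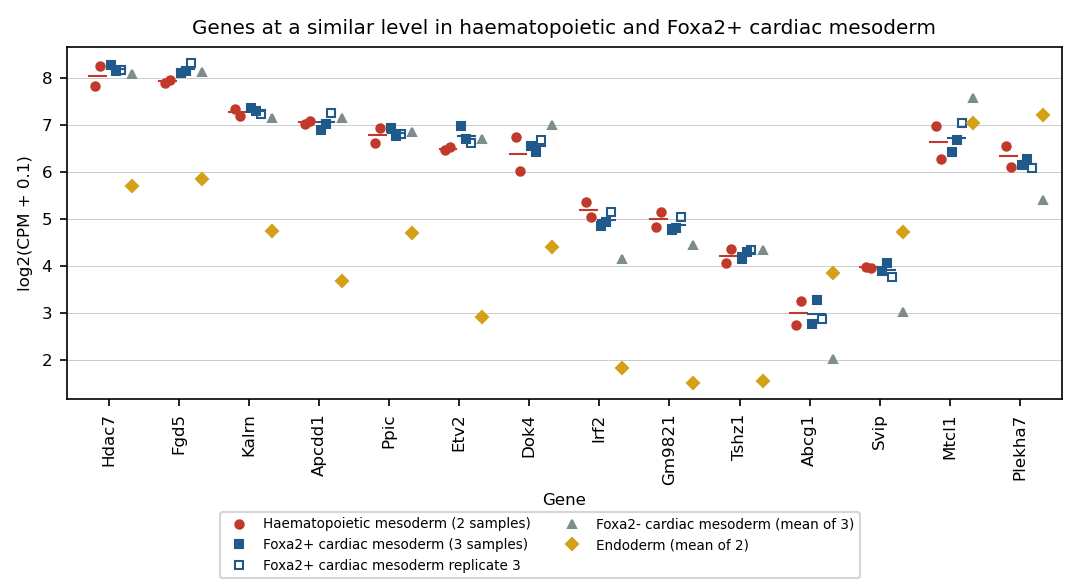
Levels of 14 genes called similar, as log2(CPM + 0.1), with haematopoietic mesoderm as circles, Foxa2+ CM as squares (replicate 3 open), the mean of the plotted values of each of these groups as a short line, the mean of Foxa2- CM as a triangle and that of endoderm as a diamond. Circles and squares lie close in all 14, although the groups do not overlap in Fgd5 and Etv2. The diamonds lie far below them in the first 10, such as Etv2 at 7.37 CPM. The triangles part from them most in the last 4 and in Irf2, and by less in Dok4 and Gm9821.

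Of the genes that the study names for Foxa2+ against Foxa2- CM, Sema3a, a guidance ligand, was at 48.9 and 50.4 CPM in haematopoietic mesoderm and at 69.2, 84.8 and 68.4 CPM in Foxa2+ CM, with 18.0 CPM in Foxa2- CM. It was undecided (log2 difference −0.58 ± 0.41, adjusted p = 0.357), although the groups did not overlap. Zfpm2 (Fog2), a cofactor of Gata4, was at 13.1 and 22.1 CPM against 27.6, 29.8 and 16.4 CPM, with overlap, and with 4.11 CPM in Foxa2- CM. Syne1, a nuclear envelope protein, was at 5.15 and 12.9 CPM against 7.16, 11.9 and 10.5 CPM, with 2.95 CPM. Myocd, a coactivator of muscle genes, was at 0.314 and 10.4 CPM against 12.3, 16.1 and 16.5 CPM, so that the haematopoietic samples differed from each other far more than the CM samples did. It was undecided (log2 difference −1.51, adjusted p = 0.273), and called lower without haematopoietic replicate 2 (log2 difference −5.57, adjusted p = 0.00165). Sema6a was at 41.3 and 62.1 CPM against 89.5, 98.5 and 89.0 CPM, a log2 difference of −0.84 ± 0.18 (adjusted p = 0.0104) that was under 2-fold. Alox15, a lipoxygenase, was at 23.2 and 9.53 CPM against 9.28, 13.4 and 10.6 CPM, with 79.4 CPM in Foxa2- CM.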

How the data were processed

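RNAseq was measured in 10 samples of sorted cells. The values that the authors deposited are counts, whole numbers of reads per Ensembl gene and not normalized. They were made from single-end reads aligned to mm10 with STAR 2.5.0a, with duplicate reads removed by Picard and counting by HTSeq 0.6.0. Without molecular identifiers, duplicate removal limits the counts of abundant genes. Lines that name no gene (no feature, ambiguous or multiply aligned reads) were left out of library sizes and tests, and genes held 72.2% to 80.5% of the uniquely aligned reads per library. The annotation and strand setting of the counting are not given in the sources used here.

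Counts were normalized with TMM and tested with edgeR 4.0.16 in R 4.3.3 (filterByExpr, robust quasi-likelihood test, Benjamini-Hochberg adjustment), with all 10 samples in 1 model by group and no replicate block. Genes were called at an adjusted p under 0.05 and at least 2-fold, and fold changes are haematopoietic mesoderm over Foxa2+ CM. The SE is the log2 difference divided by the square root of F, so it adds no evidence beyond the p. Similar level used limma 3.58.1 (voom) with a 1.5-fold margin. The 95% intervals are from limma. Names and positions are from GENCODE M21, on the same build, which matched 37607 of 38924 identifiers. Alternatives were DESeq2 1.42.0, other size factors, filters, limits, sample sets, a replicate block and leaving out each sample. Scripts were tested on simulated data. Tables and figures used pandas 2.3.3 and matplotlib 3.10.9.

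The gene lists and members were chosen with earlier results of these data known. Named are the genes of the sort, the 12 most raised and 12 most lowered that averaged 50 counts or more with no overlap, up to 5 called members per direction and 4 similar members of each list, the similar genes that endoderm or Foxa2- CM holds at the most different level, markers of the cell types and genes named by the study. Others were chosen after their values were seen. Single-gene results of 3 list members are not reported here.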

Additional observations from a re-analysis of the deposited data

How the results depend on the processing

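Against 1830 changed genes (827 higher, 1003 lower), the count was 647 (304 and 343) when tested against the 2-fold limit itself and 3675 (1867 and 1808) with no fold limit. A filter at a mean of 50 counts left 514 higher. With 1 sample left out, changed genes ranged from 1358 to 1862, higher genes from 538 (without Foxa2+ CM replicate 1) to 986 and lower genes from 752 to 1184. DESeq2 gave 769 higher and 1015 lower. Similar genes numbered 6943 at the 1.5-fold margin, 9987 at 2-fold and 671 at a ratio of 5 to 4, and 5393 to 6559 with 1 sample left out. Other size factors, sample sets and the absence of a filter moved these counts by under 1.5 times. Of 203 named or listed genes called, 132 were called in each of the 5 fits with 1 sample left out and 4 (Erg, Vwf, Twist2 and Sfrp5) in none. The log2 difference of Tnc, undecided at 0.38, was −2.94 without haematopoietic replicate 2 (adjusted p = 0.0158), since this gene was at 2.95 and 55.3 CPM in the haematopoietic samples.

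A fit with replicate number as a block gave 2016 changed genes, of which 909 were higher and 1107 lower, and 6720 similar genes. The groups share only the numbers 1 and 2, and the labels do not say what a number marks. The deviations of same-numbered samples had correlations across genes of −0.0045 and −0.1, but with 2 haematopoietic samples these rest on 1 difference and do not settle the pairing. Tie1, at 0.248, 0.397 and 18.5 CPM in Foxa2- CM, went from a log2 difference of 6.06 to 8.10 with the block.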
